A study of Saccharomyces cerevisiae with 16 samples.

Results

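Basal translation efficiency was examined in yeast cultures that had received only the solvent DMSO for 8 h. It is the density of ribosome footprints (mRNA fragments protected by ribosomes) on a coding sequence divided by the density of RNA-seq reads from it. The 4 libraries that the labels give as DMSO at 8 h, 2 of footprints and 2 of RNA, were taken from the 16 of the series, together with the 5647 genes present in both kinds of file, of 7126 features in the RNA files. All cultures were the haploid strain BY4742 grown in rich medium (YPD), with eIF4E, the protein that binds the mRNA cap and is encoded by CDC33, fused at its C-terminus to an auxin-inducible degron, and with the rice F-box protein osTIR1 that the degron needs, so that the solvent controls carry the degron allele too and no library comes from a strain with untagged eIF4E. The comparison groups were IAA (the auxin that triggers degradation of eIF4E) at 8 h and DMSO at 1 h, each with 2 footprint and 2 RNA libraries. Duplicates are labelled as biological replicates, but whether they came from separate cultures is not said, so that the p-values below reflect library-to-library spread that could in part be technical.

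Ribosome density per mRNA is set largely by how often a ribosome starts on the mRNA and by how fast it moves along the coding sequence. In yeast a start codon is usually found by scanning from the cap, so that short open reading frames upstream of the main one, structures in the leader and the bases next to the start codon can hold initiation down. Abundant proteins such as ribosomal proteins and glycolytic enzymes are known for well translated mRNAs, and mRNAs of regulatory proteins for poorly translated ones.

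Footprint totals over genes were 1766499 and 9985060 counts, and RNA totals 10182227 and 15072930 counts, so that the first footprint library is the shallowest and sets the precision of low genes. Across genes the log2 densities of the replicates had Pearson r of 0.98 for footprints and 0.99 for RNA. The genes deleted in BY4742 (HIS3, LEU2, LYS2 and URA3) had 0 footprint counts in both libraries and together 33 and 24 RNA counts. The 4 alpha-cell genes that fit the strain's mating type had 4000 and 27150 footprint counts and 19492 and 26057 RNA counts, against 4 and 23 footprint counts and 194 and 239 RNA counts for 5 a-cell genes. None of the 8 mitochondrially encoded genes listed is in the footprint files of 8 h, so that mitochondrial translation was not analysed here.

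Densities are given below as counts per 100 codons after scaling to library size (CPM). Of the 5647 genes 5362 passed the filter on low counts, 378 of them through the RNA libraries alone, and were tested with edgeR. Footprints exceeded RNA at least 2-fold in 702 genes (13.1% of those tested, adjusted p under 0.05), and RNA exceeded footprints at least 2-fold in 753 genes (14.0%). With at least 10 counts required in each library, 616 genes were higher and 428 lower, and 362 of the 753 were among these 428. Since the ratio is relative, the median gene had a log2 translation efficiency of 0.00. Scaling by total counts alone moved this median by -0.86 and the split to 201 higher and 2330 lower genes, and all values below are relative to the median gene. The middle 80% of genes spanned a 5.54-fold range of translation efficiency, against 26.3-fold for RNA density and 90.2-fold for footprint density. The typical difference between replicates of a gene with at least 10 counts in each library was 1.16-fold for footprints and 1.10-fold for RNA. Footprint and RNA density were correlated across 5249 genes (Spearman rho 0.91, genes are not independent), and translation efficiency was higher for abundant mRNAs, with a median of 0.53 in the 1341 genes of highest RNA density and -0.51 in the 1341 genes of lowest. These 2 sets differ in length, with medians of 275 and 498 codons. Relative to genes of the same eighth by coding length their medians were smaller, 0.26 and -0.29. Of the 753 lower genes 111 had no footprint in either library, and 61 had no coding entry in the reference.

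**Figure D1:**
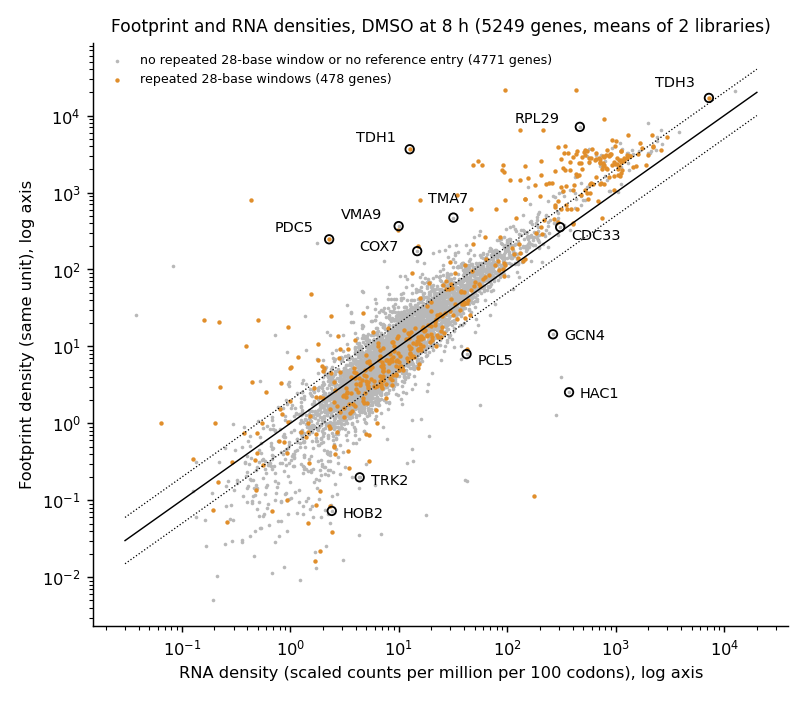
Footprint density against RNA density (means of 2 libraries, log axes) for 5249 genes with reads in both assays. The solid line marks equal densities and the dotted lines 2-fold differences. HAC1 and GCN4 sit far below the line among abundant mRNAs, and the genes far above it are mostly orange, the colour of genes with 28-base windows found more than once in the genome.

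The lowest of the 15 lowest translation efficiencies that the naming rule took was that of HAC1, the transcription factor gene of the unfolded protein response (chromosome VI, 75179 to 76147, build R64, coding sequence in 2 parts around an intron of 252 bases). HAC1 had 5 and 54 footprint counts, against 11677 and 14447 RNA counts. Its density was 1.75 and 3.33 in footprints, against 415 and 328 in RNA. The log2 translation efficiency was -6.94 ± 0.23 (SE, n = 2 libraries per assay, edgeR adjusted p = 1.13e-12), and no footprint value came near an RNA value. In unstressed cells the intron stays in the mRNA and is known to pair with the leader, which blocks translation. The stretch of the 100 bases upstream of the start codon that pairs best with the intron in R64 (RefSeq) is shown with its partner, because it is the known element of this repression. It lies at chrVI:75141-75159 and its partner at chrVI:75942-75960, both on the plus strand. Capitals mark the 16 of 19 bases that can pair, 11 of them in a row.
HAC1 leader: AACCtcCTCCTCCCCCAcC
HAC1 intron: GaTGGGGGAGGAGccGGTT

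GCN4, the activator of amino acid biosynthesis genes, was the next abundant mRNA held at low density (chromosome V, 138918 to 139763, minus strand). GCN4 had 67 and 178 footprint counts, against 9536 and 12539 RNA counts. Its density was 19.6 and 9.17 in footprints, against 287 and 241 in RNA, a log2 translation efficiency of -4.43 ± 0.25 (adjusted p = 6.1e-10). Both footprint values lay far below both RNA values, although they also differed between themselves. For scale, CDC33 had a density of 356 and 353 in footprints, against 295 and 319.6 in RNA. Upstream open reading frames are the known cause of low GCN4 translation in fed cells. The 4 that a search of 600 bases upstream found in R64 are given with the distance of their first base from the main start codon. Capitals mark start and stop codons.
GCN4 at -361: ATGgcttgcTAA
GCN4 at -293: ATGtgtTAA
GCN4 at -176: ATGtacccgTAG
GCN4 at -151: ATGtttccgTAA

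PCL5, the cyclin that targets Gcn4 for degradation, had a density of 8.39 and 7.52 in footprints, against 47.4 and 36.98 in RNA (chromosome VIII, 237004 to 237693). Its log2 translation efficiency was -2.44 ± 0.20 (adjusted p = 6.97e-08), and the 2 assays did not overlap. Upstream of PCL5, 300 bases held an open reading frame of 6 codons at -172, another of 13 codons at -133 and a run of 29 adenines that ends 18 bases before the start codon. The first frame and the run are printed because they are the features of this leader.
PCL5 at -172: ATGcactcttccgtcttcTAA
PCL5 adenine run: aaaaaaaaaaaaaaaaaaaaaaaaaaaaa
CLN3, the G1 cyclin that starts the cell cycle, had a density of 4.37 and 6.06 in footprints, against 14.2 and 13.5 in RNA, with a log2 translation efficiency of -1.32 ± 0.18 (adjusted p = 1.5e-05). Its leader holds 1 short frame, within 400 bases searched.
CLN3 at -315: ATGgatttcTGA
CPA1, the arginine-repressed subunit of carbamoyl phosphate synthetase, had 12.9 and 11.5 in footprints, against 30.4 and 25.6 in RNA. Its log2 translation efficiency of -1.22 ± 0.16 (adjusted p = 1.22e-05) stands beside an upstream frame of 25 codons at -134, the coding sequence of the arginine attenuator peptide.

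Of the 14 mRNAs listed for a known upstream open reading frame, 4 were lower (GCN4, PCL5, CLN3 and CPA1), 1 was higher and 9 did not pass both limits. Over all genes tested 14.0% were lower and 13.1% higher. The median of the 14 mRNAs was -0.55, against 0.00 over all genes tested. YAP1, an activator of oxidative stress genes, had -0.87 ± 0.15, HOL1, a polyamine transporter gene, -0.72 ± 0.21, and PPR1, the activator of uracil synthesis, -0.99 ± 0.27, all with an adjusted p under 0.05 but less than 2-fold. HAP4, the activator of respiratory genes, had -0.17 ± 0.28 (adjusted p = 0.613) and INO2, an activator of phospholipid synthesis, -0.32 ± 0.22 (adjusted p = 0.218). DCD1, the dCMP deaminase gene, was the exception above 2-fold at 1.01 ± 0.18 (adjusted p = 0.000219). Over the genome, 962 of 5280 tested coding genes had an ATG within the 50 bases upstream on the coding strand, with a median of -0.23, against 0.06 for the other 4318 genes. Among those 962 genes, 21.2% were lower and 8.32% higher, against 11.3% and 14.3% of the others.

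Of 10 mRNAs listed for splicing or frameshift control 8 were tested, 4 of them lower and 2 higher. Over all genes tested 14.0% were lower and 13.1% higher. OAZ1, the ornithine decarboxylase antizyme gene read through a frameshift, had -1.06 ± 0.24 (adjusted p = 0.0012). HFM1 and REC107, meiotic genes with an intron removed only in meiosis, had -3.10 ± 0.41 and -1.62 ± 0.32. HFM1 had only 2 and 11 footprint counts, near the limit of counting. RPL30, whose protein represses splicing of its own transcript, had 2.71 ± 0.16, and YRA1, an mRNA export factor gene with its own intron feedback, 1.08 ± 0.13. Over all coding genes, the 243 with an intron in the coding sequence had a median of 0.83, against -0.01 for the 5037 without. Without ribosomal proteins, 155 genes with an intron remained, with a median of 0.41 and a median difference from genes of the same length eighth of -0.04.

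Among less abundant mRNAs, the rule took genes of many functions. HOB2, a gene of the bridge-like lipid transfer protein family (chromosome XVI, 760025 to 767494), had 1 and 21 footprint counts, against 695 and 1128 RNA counts, a log2 translation efficiency of -4.58 ± 0.30 (adjusted p = 3.93e-09). TRK2, a potassium transporter gene (chromosome XI, 527815 to 530484), had 1 and 20 footprint counts, against 462 and 709 RNA counts (-4.002 ± 0.32, adjusted p = 4.13e-08). In both genes, and in ROG3 below (1 and 23 footprint counts), footprints were near the limit of counting in the shallow library, while RNA was well measured. HOB2, TRK2 and ROG3 passed the filter on low counts through the RNA libraries alone. The p-values of HOB2 and TRK2 are therefore not read as support. GAL80, the repressor of Gal4, was better measured, with a density of 1.84 and 3.44 in footprints, against 19.2 and 17.5 in RNA (-2.59 ± 0.22, adjusted p = 1.02e-07). TEL1, a DNA damage checkpoint kinase gene of 2788 codons, had a density of 0.415 and 0.385 in footprints, against 2.24 and 2.24 in RNA (-2.51 ± 0.21, adjusted p = 9.24e-08). The remaining genes of this set ran between -3.80 ± 0.27 for BRE4 and -2.48 ± 0.39 for ROG3, an arrestin gene, and held LAM4 (sterol transfer, -3.20 ± 0.30), FRE3 (a ferric reductase, -2.96 ± 0.34), YGR127W (-2.89 ± 0.33), REV3 (DNA polymerase zeta, -2.87 ± 0.34), FUN19 (-2.79 ± 0.35), MMS22 (repair of replication forks, -2.62 ± 0.30) and MNN4 (mannan phosphorylation, -2.55 ± 0.28). All 15 lowest genes had at least 239 codons, with a median of 890. The rule asked for a mean of at least 10 footprint counts, which at a given density favours long genes. Short genes were called lower too, with 109 of the 672 genes (16.2%) in the shortest eighth by coding length.

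Some mRNAs had no footprint at all, and here only a bound can be given. YCR024C-B (chromosome III, 162599 to 162865, minus strand, 89 codons) had 0 footprint counts in both libraries against 4579 and 7483 RNA counts. With a floor of 3 counts over both footprint libraries its footprint density was at least 895-fold lower than its RNA density, counting error only. CST9 and ISC10, genes of meiosis and sporulation, had 0 footprint counts against 305 and 457 (CST9) and 312 and 391 (ISC10) RNA counts, at least 70.6-fold and 64.1-fold lower. CNM1 was at least 56.6-fold lower (0 footprint counts, 228 and 398 RNA counts), and YOL029C at least 52.3-fold (0 footprint counts, 227 and 381 RNA counts). Whether the counting used strand is not stated, and RNA reads of a neighbouring transcript cannot be told apart from these genes' own.

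At the other end, the largest ratios belonged to genes with a close, abundant copy. TDH1, a glyceraldehyde-3-phosphate dehydrogenase gene, had 16262 and 76860 footprint counts, against 419 and 893 RNA counts, and a log2 translation efficiency of 8.17 ± 0.22. Its paralogue TDH3 had 75763 and 355771 footprint counts against 269317 and 465571 RNA counts, and 28.8% of the 28-base windows of TDH1 occur more than once in the genome. RPL41A and RPL41B, identical ribosomal proteins, had the same 1338 and 11407 footprint counts, against 1911 and 1123 RNA counts for RPL41A and 352 and 361 RNA counts for RPL41B. TEF1 and TEF2, which encode the same elongation factor eEF1A, had nearly the same footprint counts (35580 and 218644 for TEF1, 36015 and 219286 for TEF2) with 6607 and 11933 RNA counts for TEF1 and 11379 and 18569 RNA counts for TEF2. In both of these pairs footprint counts were equal or nearly equal while RNA counts differed, which did not hold for TDH1 and TDH3. In the RNA libraries 17.98 and 20.14% of reads were set aside as matching more than 1 place, and how shared reads were treated in the footprint files is not given in the sources used here. PDC5 (6.76 ± 0.19), ANB1 (5.03 ± 0.16), PIR3 (5.02 ± 0.22), PMA2 (4.25 ± 0.19) and COS7 (3.37 ± 0.20), all with paralogues, held 4.61 to 78.8% of repeated windows. Over the genome the 67 genes with over 50% of repeated windows had a median of 2.34, against 0.00 for the 4796 coding genes without one. Translation efficiencies of genes with repeated windows are therefore uncertain, and groups are also given without them: 532 of those 4796 genes were higher and 629 lower.

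The other 9 of the 15 highest genes had no repeated window and were all short, with 60 to 163 codons. VMA9, a subunit of the proton-pumping vacuolar ATPase (chromosome III, 107023 to 107417, 74 codons in 3 coding parts), had a density of 438 and 293 in footprints, against 12.8 and 7.11 in RNA, a log2 translation efficiency of 5.20 ± 0.26 (adjusted p = 1.33e-10). RPL29, a protein of the large ribosomal subunit (chromosome VI, 223258 to 223437, 60 codons), had 6697 and 7553 in footprints, against 567 and 367 in RNA (3.93 ± 0.20, adjusted p = 1.59e-10). TMA7, found with ribosomes, had 441 and 503 in footprints, against 40.1 and 23.7 in RNA (3.92 ± 0.21, adjusted p = 3.92e-10). In each of these genes both footprint values lay far above both RNA values, but the naming rule required a call and no overlap between assays. This separation and the p-values are therefore not read as support, here or for other genes taken only by this rule. COX7, a subunit of cytochrome c oxidase, had 185 and 161 in footprints, against 18.6 and 10.9 in RNA (3.55 ± 0.24). MIM2 (mitochondrial outer membrane insertion) reached 3.49 ± 0.32, SNX3 (endosomal sorting) 3.39 ± 0.23, LSM3 (splicing and mRNA decay) 3.09 ± 0.22, SPT4 (transcription elongation) 3.01 ± 0.21 and YSY6 (secretory pathway) 2.997 ± 0.24. For several of these short genes the RNA replicates differed more than the footprint replicates, as in YSY6 with 165 and 162 in footprints, against 26.5 and 14.97 in RNA. At 1 h in DMSO the log2 translation efficiency was 1.36 in RPL29, 1.14 in COX7, 0.65 in VMA9 and 0.22 in LSM3. It was 0.20 in SNX3, 0.19 in SPT4, 0.03 in MIM2, -0.31 in TMA7 and -0.46 in YSY6. In each of these 9 genes RNA density was lower and footprint density higher at 8 h than at 1 h, and the cause was not tested.

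**Figure D2:**
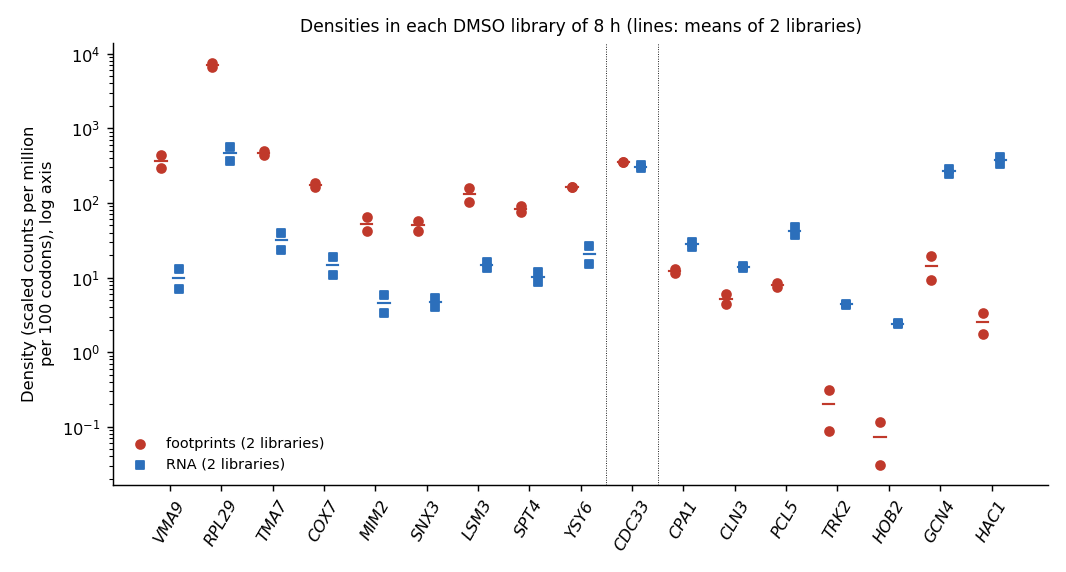
Density in each of the 2 footprint and 2 RNA libraries (log axis, lines are means) for the 9 highest genes without repeated windows, CDC33, and 7 low genes. Footprints lie above RNA in the 9 genes on the left, close to it in CDC33 and below it in the 7 genes on the right. The naming rule required this separation in the 9 genes on the left and in HOB2 and TRK2 on the right.

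Ribosomal protein genes were mostly above 2-fold. Of the 80 large-subunit genes tested 62 were higher and 0 lower, with a median of 1.66, and of the 56 small-subunit genes 45 were higher and 0 lower, with a median of 1.89. Since 66 and 47 of them hold repeated windows, the 14 and 9 genes without one are the firmer measure. Of those 14 large-subunit genes 9 were higher (median 1.09), and of the 9 small-subunit genes 5 (median 1.32). Examples are RPL39 (1.99 ± 0.16), RPL28 (2.03 ± 0.16), RPS12 (2.22 ± 0.18) and RPS3 (1.70 ± 0.15), with RPL5 (0.55 ± 0.14) and RPS27A (0.21 ± 0.16, adjusted p = 0.269) the lowest of these. The median differences from genes of the same length eighth were 0.58 and 0.50 over the same 14 and 9 genes.

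Elongation and termination factors had 8 of 15 genes higher and 0 lower (median 1.19), but only 5 genes without repeated windows, with a median of 0.50, of which EFB1, the exchange factor of eEF1A, was higher (2.10 ± 0.14), in a gene that overlaps another annotated gene. SUP45, the release factor eRF1, had 0.91 ± 0.13 and RLI1, a ribosome recycling factor, 0.50 ± 0.14, both past the test but under 2-fold. The other 2 were SUP35, the release factor eRF3 (0.38 ± 0.14, adjusted p = 0.0258), and NEW1, an ATPase of the ABC family (-0.06 ± 0.14, adjusted p = 0.744). Among 28 initiation factors 5 were higher and 0 lower (median 0.27), and among the 24 without repeated windows 2 were higher and 0 lower (median 0.24), where 13.1% of all genes were higher. SUI1, which encodes eIF1, was 1 of the 2 (1.35 ± 0.16). FUN12 (eIF5B, -0.78 ± 0.16) and TIF4632 (eIF4G2, -0.66 ± 0.17) were below 0 and passed the test without reaching 2-fold. CDC33 itself (chromosome XV, 60383 to 61024, minus strand) had a density of 356 and 353 in footprints, against 295 and 319.6 in RNA, and its log2 translation efficiency of 0.21 ± 0.13 did not pass the test (adjusted p = 0.199). Of 20 aminoacyl-tRNA synthetase genes 2 were higher (HTS1, 1.08 ± 0.13, and SES1, 1.05 ± 0.14) and 0 lower, with a median of 0.35. Ribosome assembly factors had 7 higher and 2 lower of 57 (median 0.15), where 13.1% of all genes were higher and 14.0% lower. RRP1 had 1.83 ± 0.18, against -1.44 ± 0.15 in UTP21 and -1.46 ± 0.15 in UTP20, a gene of 2494 codons.

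Glycolytic and fermentation genes had 10 of 20 higher and 0 lower (median 0.99). Of these, 12 had no repeated window and a median of 0.51, and 3 of the 12 were higher: TPI1, triose phosphate isomerase, with a density of 2981 and 3028 in footprints, against 580.2 and 509 in RNA (2.46 ± 0.15, adjusted p = 1.2e-09), PGK1 (1.21 ± 0.14) and GPM1 (1.13 ± 0.14). The phosphofructokinase genes PFK1 (0.03 ± 0.15) and PFK2 (-0.07 ± 0.14), of 988 and 960 codons, did not pass the test. Amino acid biosynthesis had 6 of 63 genes higher and 3 lower, with a median of 0.44, where 13.1% of all genes were higher and 14.0% lower. Of the 53 without repeated windows 3 were higher and 2 lower. SER2 of serine synthesis was higher (1.30 ± 0.15), whereas ARG8 of ornithine synthesis was lower (-1.60 ± 0.30), as was CPA1. In the Ehrlich pathway of amino acid breakdown, ARO9 had a density of 7.13 and 9.83 in footprints, against 10.4 and 9.60 in RNA, and ARO10 of 6.46 and 6.05 in footprints, against 4.57 and 4.95 in RNA. Neither ARO9 (-0.16 ± 0.19, adjusted p = 0.47) nor ARO10 (0.38 ± 0.19, adjusted p = 0.0947) passed the test. ARO1, a multifunctional enzyme of aromatic amino acid synthesis, had -0.33 ± 0.14 (adjusted p = 0.0485), with a footprint density of 8.49 and 9.44 just under the RNA density of 11.3 and 11.4. Ergosterol synthesis genes had 3 of 22 higher and 0 lower (median 0.50), with ERG26 (1.26 ± 0.14) and HMG1 (-0.83 ± 0.16) at the 2 ends. Their share of higher genes was near the 13.1% of all genes.

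In 3 of 8 complexes the footprint densities of the subunits were more alike than their RNA densities. The 14 genes of the proteasome core ran between 93.4 and 139 in footprint density, a 1.49-fold range, and between 37.8 and 74.8 in RNA density, a 1.98-fold range. The 8 genes of the chaperonin CCT spanned 1.33-fold in footprints and 1.60-fold in RNA, and the 6 ATPases of the proteasome cap 1.45-fold and 1.79-fold. This did not extend to RNA polymerase II, whose 12 genes spanned 16.5-fold in footprints and 13.05-fold in RNA, to the 8 V1 subunits of the vacuolar ATPase (7.97-fold and 3.93-fold), to 6 subunits of coatomer (8.07-fold and 3.61-fold), to the 5 core subunits of eIF3 (4.50-fold and 2.67-fold) or to the 3 of eIF2 (1.97-fold and 1.66-fold). These ranges were not tested, the complexes were chosen after the data were seen, and subunit numbers differ within some of them. Proteasome genes as a list had 11 of 32 higher and 0 lower (median 0.84), with RPN13 (2.17 ± 0.17) and PRE5 (1.64 ± 0.14) the highest and RPN2 (-0.25 ± 0.14) the lowest.

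Nuclear genes of mitochondrial proteins were mostly above the median. Of 69 mitochondrial ribosomal protein genes 21 were higher and 0 lower (median 0.67, none with a repeated window), led apart from MRPL51, which overlaps another gene, by IMG2 (2.64 ± 0.24) and MRP35 (2.62 ± 0.22). Of 35 nuclear respiratory genes tested 13 were higher and 1 lower (median 0.72). Besides COX7, COX9 (2.34 ± 0.20) and COX13 (2.16 ± 0.15) of cytochrome c oxidase were among the highest, and QCR6 of complex III, with 19.7 and 18.03 in footprints, against 40.3 and 36.6 in RNA, was the lower one (-1.05 ± 0.19, adjusted p = 0.000251). These genes are short, and their medians relative to genes of the same length eighth were 0.10 for mitochondrial ribosomal proteins and 0.26 for respiratory genes.

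Regulatory proteins lay on the other side. Of 54 sequence-specific transcription factor genes 15 were lower and 1 higher (median -0.74), and of 46 protein kinase genes 13 were lower and 0 higher (median -0.50). Beside GCN4, PUT3, the activator of proline use, had 1.91 and 2.26 in footprints, against 6.76 and 6.96 in RNA (-1.66 ± 0.19, adjusted p = 2.62e-06), and among kinases MKK1 of the cell integrity pathway had 2.66 and 3.89 in footprints, against 19.8 and 17.1 in RNA (-2.36 ± 0.20, adjusted p = 7.92e-08). GCN2, the kinase of eIF2, had -1.40 ± 0.20 (adjusted p = 2.13e-05). INO4, a partner of Ino2 of 152 codons, was the factor above 2-fold (1.15 ± 0.38, adjusted p = 0.017). Among 20 cyclin and cell cycle genes 2 were lower, CLN3 and the kinase gene SWE1 (-1.45 ± 0.20), and 2 higher, PCL1 (1.71 ± 0.18) and CKS1 (1.01 ± 0.16). Transcription factor and kinase genes are long, and their medians relative to genes of the same length eighth were smaller, -0.27 and -0.19. Histones had 8 of 11 higher, but only 3 of the 11 lack repeated windows, of which the centromeric CSE4 was higher (1.38 ± 0.27). Plasma membrane transporters had 5 higher and 4 lower of 39 (median 0.05), near the 13.1 and 14.0% of all genes, and 1 higher and 4 lower of the 27 without repeated windows (median -0.12). Secretory genes had 6 higher and 1 lower of 39 (median 0.21), and 5 and 1 of the 37 without repeated windows (median 0.18). Cell wall genes had 7 and 0 of 30 (median 0.58), and 2 and 0 of the 14 without repeated windows (median 0.53). Chaperones (9 higher and 0 lower of 35, median 0.72, and 0.52 over the 28 without repeated windows), vacuolar ATPase subunits (4 and 0 of 15, median 0.71) and RNA polymerase II subunits (6 and 0 of 12, median 0.75) lay above the median gene, whereas genes of Gcn4 control had 0 higher and 3 lower of 10 (median -0.31). The Ehrlich pathway had 3 higher and 1 lower of 10, with a median of 0.38 over the 7 without repeated windows. DNA replication and repair genes (3 and 2 of 42, median -0.15) and mRNA decay genes (5 and 3 of 31, median 0.00) had medians close to that of all genes. All these counts stand beside 13.1% higher and 14.0% lower over all genes tested, and cyclin and mRNA decay genes lay near these shares. Secretory genes lay near the share of higher genes but below that of lower genes.

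**Figure D3:**
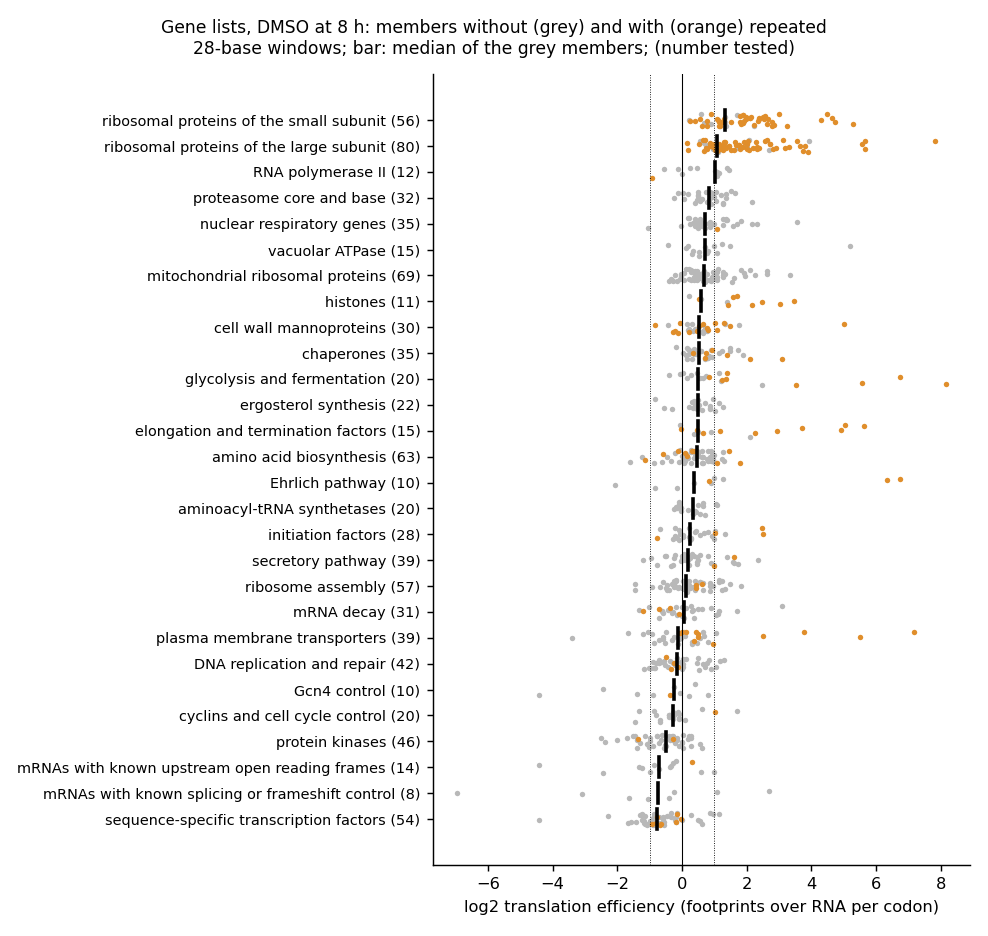
Log2 translation efficiency of each tested member of 28 gene lists, with members without repeated windows in grey, the others in orange, and a bar at the median of the grey members. The dotted lines mark 2-fold differences. Ribosomal proteins are at the top and transcription factors at the bottom, and the values far to the right are nearly all orange.

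Translation efficiency went down with coding length. In eighths of the 5362 genes by length, the median log2 translation efficiency was 0.83 for genes of up to 162 codons, then 0.67, 0.41, 0.23, 0.01, -0.22 and -0.49, and -0.84 for genes of at least 870 codons. Higher genes made up 43.2% of the shortest eighth and 0.596% of the longest, and lower genes 16.2% and 37.6%. Across genes Spearman's rho with length was -0.54, and it was -0.58 among 4425 genes of at least 200 codons and -0.52 without ribosomal proteins. It was -0.50 with RNA counts divided by the same number of codons as footprints, that is, 20 fewer. Both densities fell with length: the median footprint density was 42.1 in the shortest and 3.22 in the longest eighth, and the median RNA density 22.1 and 5.92. In the DMSO libraries of 1 h, by contrast, the same gene eighths had medians between -0.09 and 0.17, and rho was -0.02. At 8 h the first RNA replicate was above the second in the short RPL29 (567 and 367) and SUI1 (196 and 136). It was below the second in the long YEF3 (354 and 461) and equal to it in the long TEL1 (2.24 and 2.24). Whether RNA replicate differences follow length across genes was not tested.

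**Figure D4:**
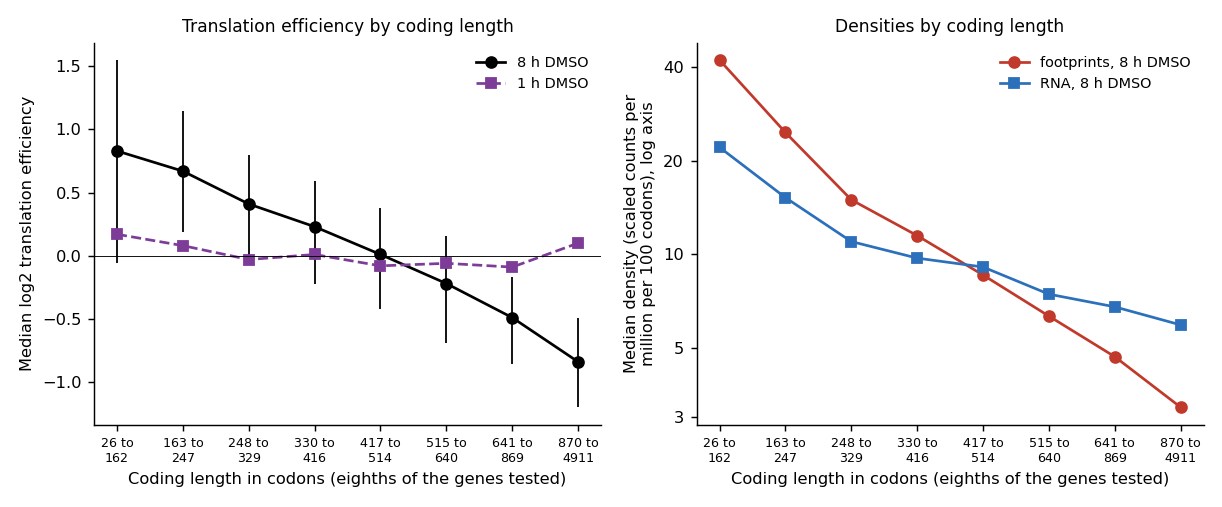
Left, median log2 translation efficiency in eighths of coding length at 8 h (black, vertical lines are quartiles) and at 1 h (purple) in DMSO. Right, median footprint and RNA density at 8 h (log axis). Translation efficiency falls at each step at 8 h and stays between -0.09 and 0.17 at 1 h, and footprint density falls more steeply than RNA density.

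The base 3 positions before the start codon, which is A in most yeast genes, also went with translation efficiency, by a much smaller amount. The 3238 genes with A had a median of 0.12, the 1031 with G -0.07, the 558 with T -0.22 and the 453 with C -0.26, and relative to genes of the same length eighth these medians were 0.08, -0.05, -0.11 and -0.16. Of the 15 highest genes 11 had A, 4 G and 0 T or C, and of the 15 lowest 7 had A, 5 G, 0 T and 3 C. The start regions of the 5 highest genes without repeated windows and of the 5 lowest are shown for comparison (R64, RefSeq, coding strand, 12 bases before the start codon to 3 after it), with that base and the start codon in capitals.
VMA9: gaacaaagaGtaATGagt
RPL29: cttctccagAaaATGgct
TMA7: ccctaagcaAtcATGtct
COX7: caataataaAtaATGgct
MIM2: aataactagAacATGgca
HAC1: acaaccgccActATGgaa
HOB2: aaaaaatctAcaATGtct
GCN4: aatacaaatAaaATGtcc
TRK2: taagaaccaCtcATGcca
BRE4: taacaggtcCtcATGaaa
HAC1, HOB2 and GCN4, the 3 lowest, all have A at this position, as most genes do.

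The ratio at 8 h was then set against that at 1 h, both in DMSO, in a fit of 8 libraries. The RNA of 8 h was depleted of rRNA while that of 1 h was selected for poly(A), and the footprint protocols differed too, so that time, RNA selection and protocol cannot be told apart. Of 5406 genes tested 697 had a higher ratio at 8 h (12.9%) and 533 a lower one (9.86%). With total counts alone the median difference moved by 0.31, and 1154 were higher and 327 lower. The difference followed length (Spearman rho -0.52), with medians of 0.66 in the shortest and -0.88 in the longest eighth. Over length eighths this trend lay mainly in the footprints. Their median log2 ratio of 8 h over 1 h was 0.88 in the shortest and -0.77 in the longest eighth, against 0.23 and 0.14 for RNA. Across 5337 genes the log2 translation efficiencies of the 2 times had a Spearman rho of 0.52 (0.19 among 1498 genes with at least 100 counts in each of the 8 libraries). Among the largest rises that the rule took, TMA7 differed by 4.28 ± 0.27, VMA9 by 4.58 ± 0.31, MIM2 by 3.47 ± 0.35, YSY6 by 3.50 ± 0.27 and SNX3 by 3.21 ± 0.26. HSP12, a membrane stress protein gene, rose by 4.21 ± 0.65, STF2, an ATP synthase regulator, by 3.07 ± 0.43 and SPR6, a sporulation gene, by 3.11 ± 0.48. Among the falls were FRE5 (-3.99 ± 0.50) and FRE4 (-3.36 ± 0.37), ferric reductase genes, SRO9 (-3.70 ± 0.18), an RNA-binding protein gene, CHC1 (-3.27 ± 0.17), clathrin heavy chain, TVS1 (-3.16 ± 0.18), RRG8 (-3.11 ± 0.50) and COS5 (-3.38 ± 0.22, 92.4% repeated windows). In single genes either assay could move more. RNA density moved more in VMA9 (103 and 100 at 1 h, 12.8 and 7.10 at 8 h) and SRO9 (9.77 and 12.1, then 84.9 and 100). Footprint density moved more in CHC1 (66.8 and 65.7 at 1 h, 13.8 and 15.2 at 8 h) and STF2 (7.50 and 7.32, then 29.4 and 51.2).

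Of the key genes, HAC1 had a log2 translation efficiency of -6.94 at 8 h and -3.34 at 1 h, a difference of -3.56 ± 0.31 (adjusted p = 9.54e-07). Its footprint density at 1 h was 7.48 and 6.30 and its RNA density 64.7 and 78.8. GCN4 had -4.43 at 8 h and -5.60 at 1 h (difference 1.17 ± 0.32, adjusted p = 0.00824), so that it was among the low genes at both times. PCL5 differed by 0.17 ± 0.38 and CPA1 by -0.47 ± 0.19, which did not pass the test (adjusted p = 0.75 and 0.0593). CLN3 (-0.60 ± 0.20, adjusted p = 0.0229), CDC33 (-0.61 ± 0.15, adjusted p = 0.00359) and ARO1 (-2.03 ± 0.15, adjusted p = 2.43e-07) were lower at 8 h, and ARO9 (-0.23 ± 0.18) and ARO10 (0.07 ± 0.18) did not pass the test. Among the lists, histones (7 of 11), mitochondrial ribosomal proteins (21 of 69) and respiratory genes (11 of 35) had higher members and 0 lower ones. Glycolysis had 1 higher and 9 lower of 20. Over all genes tested 12.9% were higher and 9.86% lower. The first 3 lists hold short genes (medians of 133, 220 and 154 codons), and the time difference had a median of 0.66 in the shortest eighth. Repeated windows occur in 8 of the histones and 8 of the glycolysis genes. Whether these counts go beyond length was not tested.

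**Figure D5:**
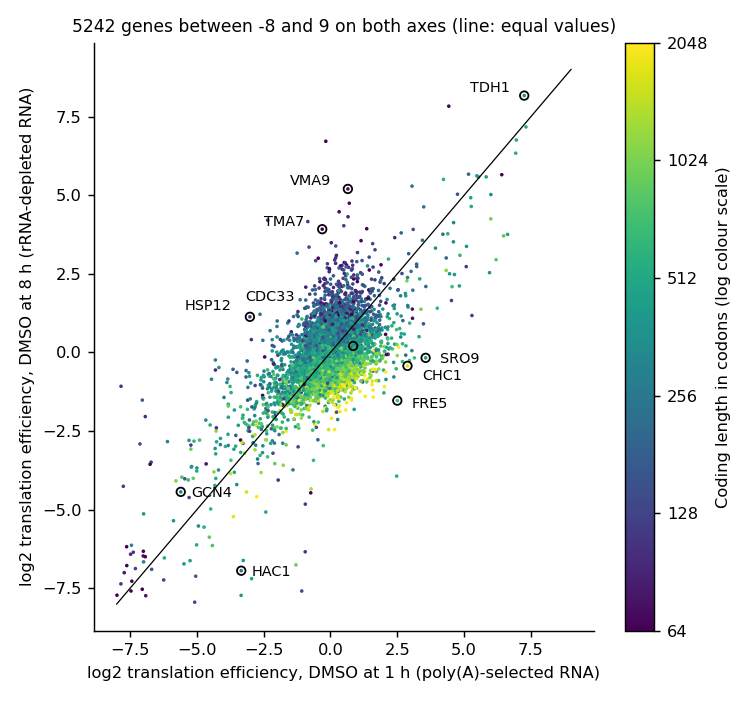
Log2 translation efficiency of each gene at 8 h against 1 h in DMSO, coloured by coding length, for 5242 genes between -8 and 9 on both axes. Short genes (dark) lie mostly above the line of equal values and long genes (light) mostly below it, and HAC1 and GCN4 are low at both times.

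IAA was set against DMSO at 8 h to see whether these basal values moved when eIF4E degradation was induced, and few genes were called. Of 5442 genes tested in the 8 libraries of 8 h, 43 had a higher ratio with IAA than with DMSO (0.790%) and 60 a lower one (1.10%). These counts rest on single libraries: without the first IAA footprint library 4 were higher and 6 lower, and leaving out others gave 25 to 121 higher and 10 to 91 lower genes. With total counts alone 77 were higher and 49 lower. The difference between IAA and DMSO ran with length in the direction opposite to the basal trend (Spearman rho 0.39), with medians of -0.34 in the shortest and 0.32 in the longest eighth. Both comparisons use the same DMSO libraries. PCL5 was lower with IAA, by -1.75 ± 0.29 (adjusted p = 0.00453), and ARO1 higher by 0.71 ± 0.19 (adjusted p = 0.0369). GCN4 (0.24 ± 0.29, adjusted p = 0.671), HAC1 (-0.89 ± 0.33, adjusted p = 0.122), CDC33 (0.44 ± 0.17, adjusted p = 0.134), CLN3 (-0.60 ± 0.22, adjusted p = 0.111) and CPA1 (-0.19 ± 0.22, adjusted p = 0.637) did not pass the test. Of the 15 highest and 15 lowest genes at least 2-fold changes with an adjusted p under 0.05 were found in ANB1 (1.09 ± 0.21), MIM2 (-1.49 ± 0.43), FUN19 (-1.95 ± 0.51) and GAL80 (-1.08 ± 0.28).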

How the data were processed

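Ribosome footprints and RNA were sequenced from cultures of 8 h and 1 h. The authors deposited whole-number counts per gene for each library, after adapter trimming and alignment (cutadapt and STAR with R64 or sacCer3 are named in the submitters' processing notes). Which counter was used, and whether it used strand, is not given in the sources used here. The RNA of 8 h was rRNA-depleted. The codons counted in the footprint files were 20 fewer than the reference coding length in 5444 of 5450 genes. Which codons are left out is not shown by the counts. Reads assigned to no single gene were 21.67 and 25.27% of the RNA reads in the DMSO libraries of 8 h and were left out. Most of them matched more than 1 place (17.98 and 20.14% of the RNA reads).

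From these counts, edgeR 4.0.16 (R 4.3.3) fitted footprints over RNA by the quasi-likelihood test with TMM scaling, a length offset in codons and Benjamini-Hochberg adjustment over all genes tested. A gene was called at an adjusted p under 0.05 and at least 2-fold. The 8 h against 1 h and IAA against DMSO comparisons were fitted as interactions over 8 libraries each. DESeq2 1.42.0 was an alternative. Each fit was tested on simulated data. Figures were drawn with matplotlib 3.10.9 in Python 3.11.15.

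The members and gene lists were chosen with earlier results of these data known. Named genes were 9 key genes, the 15 highest and 15 lowest called genes (a mean of at least 50 RNA counts and at least 50 or 10 footprint counts, no overlap between assays or with another gene, no protein copy at least 95% identical), up to 3 highest and 3 lowest of each list, the 8 largest rises and 8 largest falls between times, and up to 5 genes without footprints. CSE4, EFB1, GPM1, HAP4, HOL1, INO2, OAZ1, PGK1, PPR1, RLI1, RPL28, RPL39, RPL5, RPS12, RPS3, SUP45, TPI1, YAP1, the copies and the complexes were named after their values were seen. Gene positions, repeated windows and sequences came from RefSeq R64.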

Additional observations from a re-analysis of the deposited data

Results flagged for a closer look

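The ratio of footprints to RNA differed between the times in DMSO, by an interaction test in edgeR, in 697 genes that were higher and 533 that were lower at 8 h, and between IAA and DMSO at 8 h in 43 higher and 60 lower genes. Among the key genes, the log2 difference of 8 h against 1 h was -3.56 for HAC1, -2.03 for ARO1, 1.17 for GCN4, -0.61 for CDC33 and -0.60 for CLN3. The log2 difference of IAA against DMSO at 8 h was -1.75 for PCL5 and 0.71 for ARO1. Time cannot be told apart from RNA selection and footprint protocol.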

How the results depend on the processing

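Scaling by total counts alone gave 201 higher and 2330 lower genes at 8 h, 1154 and 327 for 8 h against 1 h, and 77 higher for IAA against DMSO. The adjusted p alone gave 1617 higher and 1517 lower genes at 8 h, and at least 10 counts in each library gave 428 lower, 362 of them among the 753. Chosen after seeing the data, the difference from the length eighth gave 302 higher genes, and it turned the median of DNA replication and repair genes to 0.23. Among 1 h libraries the correlation with length was 0.01 for genes of at least 200 codons. The replicate numbers did not pair the samples by any label, and the correlation of the 2 assays' replicate differences was 0.14 across genes. With a replicate block 701 genes were higher and 701 lower at 8 h, and 102 were lower for IAA against DMSO. Leaving out each library in turn gave 635 to 762 higher and 563 to 859 lower genes at 8 h, and 4 to 121 higher and 6 to 91 lower genes for IAA against DMSO. There the counts moved by over 1.5 times without the second DMSO footprint library (106 higher), the first IAA footprint library (4 and 6), the first DMSO RNA library (108 and 91), the second DMSO RNA library (14 lower), the first IAA RNA library (121 higher) and the second IAA RNA library (25 and 10). Some single values changed sign when 1 library was left out. At 8 h the ranges were -0.63 to 0.56 for FRE4 (0.15 without the first RNA library), -0.79 to 0.06 for SPR6, -0.11 to 0.21 for PFK1 (-0.09 without the first RNA library), -0.18 to 0.09 for PFK2 and -0.18 to 0.12 for NEW1 (0.00 without the first footprint library). PFK1 was also -0.04 with at least 10 counts in each library, and RPS27A -0.19 with RNA per counted codon. The range of the time difference was -0.23 to 0.41 for PCL5 (-0.00 without the second RNA library of 8 h). The range of the IAA difference was -0.35 to 0.01 for CPA1 and -0.45 to 0.65 for GCN4. The cause of these changes was not tested. The shallow first footprint library limits genes with few footprints.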
